A study of Danio rerio with 4 samples.

Results

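Genes of B cells and of the antibodies they make were followed in skin of male zebrafish at 3 ages. The set named 9 genes: the antibody heavy chain genes ighm, ighd and ighz, the receptor partners cd79a and cd79b, the signalling genes blnk and btk, the lineage factor pax5 and the tetraspanin cd37. Matching by symbol, with case ignored, found 8 of the 9 among 32105 genes of the deposited counts table: ighm (ENSDARG00000096355), ighd (ENSDARG00000096248), cd79a (ENSDARG00000037473), cd79b (ENSDARG00000104691), blnk (ENSDARG00000042722), BTK (ENSDARG00000004433), PAX5 (ENSDARG00000037383) and cd37 (ENSDARG00000075515). For ighz no row was matched, and that gene is not analysed here. The skin samples fell into 3 groups: fish of strain AB JxTu at 5 months (n = 1), fish of strain AB JxTu Tg(wt1b:GFP) at 24 months (n = 2, replicates 1 and 2), and fish of strain AB JxTu at 30 months (n = 1). In the reporter strain wt1b sequence drives green fluorescent protein. The reporter was carried by the 24-month fish alone, so the strain and that age cannot be told apart. Nothing in the labels says whether a library holds RNA of 1 fish or of several, so the spread between these samples may be technical. The edgeR tests of groups use the spread of the 24-month pair as pooled across genes, not that of each gene alone.

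B cells recognise antigen through a membrane antibody, whose heavy chains are IgM, IgD or, in zebrafish, IgZ, and whose light chains come from separate loci. The chains carry no signal themselves, and the CD79a and CD79b proteins beside them pass it to kinases such as Btk and to the adaptor Blnk. Pax5 holds cells in the B lineage, and its gene is switched off when a B cell becomes an antibody-secreting plasma cell. Fish have no marrow in bone and no lymph nodes, and their B cells form in the kidney. Fish skin is a mucosal surface that holds scattered B cells and plasma cells.

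The libraries held 18211821 counts at 5 months, 20070292 and 11833498 counts in replicates 1 and 2 at 24 months, and 20441260 counts at 30 months. Levels below are CPM, a gene's count scaled to a common library size after TMM scaling, which lines the libraries up on the bulk of genes, and a count of 0 in 24-month replicate 2 still allows 0.310 CPM (3 counts, counting error only). Epidermal markers were high throughout, with the 14 genes of that list summing to between 32840 and 81680 CPM. Transcripts of other tissues were present too. The 12 germ cell genes summed to 1119 CPM at 5 months, 989 and 2.38 CPM in replicates 1 and 2 at 24 months, and 14.8 CPM at 30 months. The 16 kidney tubule genes summed to 437 CPM at 5 months and to between 39.9 and 80.6 CPM in the other libraries. A copy of SLC4A4 (ENSDARG00000044808) made up most of that remainder, with 23.6 CPM at 5 months, 21.3 and 75.3 CPM in replicates 1 and 2, and 39.1 CPM at 30 months. The 6 erythrocyte genes summed to 564 CPM at 5 months, 110 and 67.0 CPM in replicates 1 and 2, and 111 CPM at 30 months. The 8 dermal fibroblast genes summed to 43480, 5292, 63860 and 8707 CPM in the same order, so the 24-month replicates also differed in dermal transcripts. The part of these tissues in the B cell gene levels was not tested. In whole-tissue RNA, fewer B cells and less RNA per B cell cannot be told apart.

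Antibody heavy chain transcripts were abundant in 1 of the 4 libraries. The IgM gene ighm had 78 counts at 5 months, 6891 and 20 counts in replicates 1 and 2 at 24 months, and 213 counts at 30 months, or 3.74, 299, 2.07 and 11.2 CPM in that order of libraries. Replicate 1 stood far above the other libraries and replicate 2 lowest of all, so the 24-month pair spanned the values of both other ages. By number of counts ighm ranked 360 among all genes in replicate 1, and from 9105 to 14421 in the other libraries. At 24 months ighm was called higher than at 5 months (log2 change 5.33, SE 1.16, edgeR quasi-likelihood test, adjusted p = 0.00841, n = 2 and 1). Set singly against 5 months, replicate 1 gave a log2 difference of 6.28 and replicate 2 one of −0.82, so the call rests on replicate 1. Replicates 1 and 2 lay 7.10 apart on that scale. The SE of 1.16 does not hold that spread, since the edgeR fit pooled spread across genes. DESeq2 (adjusted p = 0.0986), limma-voom, scaling by library totals, a floor of 5 CPM and edgeR's newer dispersion setting did not call it. Between 30 and 24 months the change of ighm was −3.75 (SE 1.06, edgeR adjusted p = 0.0538, n = 1 and 2) and did not pass, while without the filter on low counts the edgeR adjusted p was 0.0490.

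The IgD gene ighd, spliced from the same locus as ighm, was near the detection limit outside replicate 1. It had 2 counts at 5 months, 45 and 0 counts in replicates 1 and 2 at 24 months, and 1 count at 30 months. Its 24-month libraries together stood 14.3 times above the 5-month library, with a 95% counting interval from 3.75 to 122, and the fitted log2 change of 3.29 (SE 4.21, edgeR adjusted p = 1, n = 2 and 1) did not pass. A further heavy chain gene, ight (ENSDARG00000096280), bears the name that the trout counterpart of ighz carries, and whether it is the zebrafish ighz was not tested. It was chosen after the symbols were searched and did not share the peak of ighm, with 13 counts at 5 months, 12 and 0 counts in replicates 1 and 2 at 24 months and 5 counts at 30 months.

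**Figure D1:**
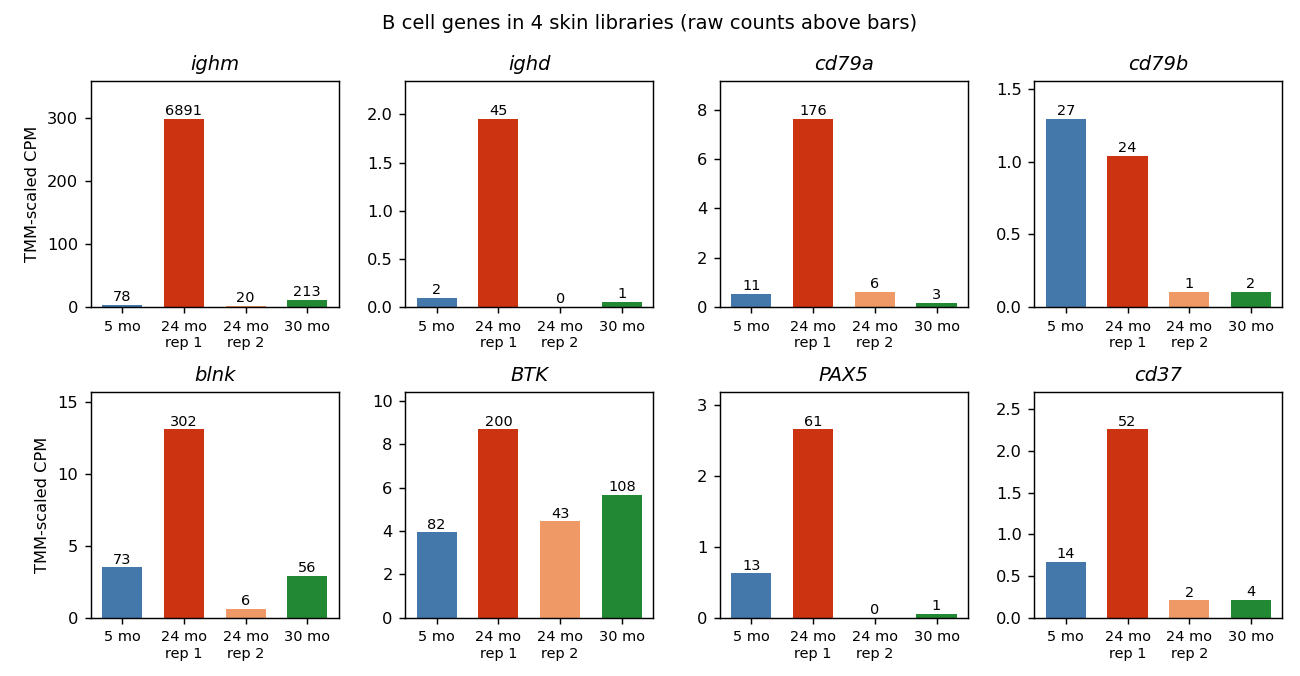
TMM-scaled CPM (vertical axis, from 0, scaled for each gene) of the 8 B cell genes in the 4 libraries, 1 bar per library, with raw counts above the bars. Replicate 1 of 24 months is highest for each gene but cd79b, which is highest at 5 months, and ighm reaches 299 CPM there.

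Other parts of the antibody molecule peaked in the same library. Variable segments of the heavy chain, the exons that give each antibody its specificity, are annotated as 35 genes, of which 22 had a count in some library. Their counts summed to 10 at 5 months, 396 and 3 in replicates 1 and 2 at 24 months, and 15 at 30 months. Replicate 1 was highest for 14 of the 35 segments. The 7 segments tested passed the filter on low counts through replicate 1 alone, so their being highest there was set by the filter. The share over all genes tested, 19.8%, is therefore no measure for them. In replicate 1, 17 segments had a count, against 2 in replicate 2, the library with fewer counts. Over all genes, 24481 had a count in replicate 1 and 19409 in replicate 2. The segment ighv9-1 alone took 219 of the 396 counts in replicate 1, a share of 55.3% (95% exact binomial interval from 50.3% to 60.3%). At 30 months it took 2 of 15 counts, or 13.3% (interval from 1.66% to 40.5%). The next segment, ighv5-5, had 35 counts in replicate 1 and 1 count at 30 months, and 0 counts in each of the remaining libraries. None of the 5 annotated joining segments had a count. Segments are short and alike, so reads can be lost or placed on a neighbour, and shares of single segments are uncertain.

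Light chain genes followed, with 13 summed counts at 5 months, 444 and 45 counts in replicates 1 and 2 at 24 months, and 19 counts at 30 months over 10 genes. The transcript linc-iglc3, named for a light chain locus, had 20, 456, 20 and 22 counts in that order. It is not among the 10 genes, so the sums, shares and ratios of light chain genes here leave it out. The constant gene igl1c3 had 6, 269, 38 and 9 counts in these libraries, and igic1s1 had 3, 96, 5 and 6. In replicate 2 igl1c3 took 84.4% of the light chain counts (interval from 70.5% to 93.5%), against 60.6% in replicate 1 (interval from 55.9% to 65.2%). Replicate 2 thus held more light chain counts than the 5-month library, in spite of its lower ighm. Neither gene passed a test of groups, with a log2 change of igl1c3 between 24 and 5 months of 4.73 (SE 2.26, edgeR adjusted p = 1, n = 2 and 1).

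**Figure D2:**
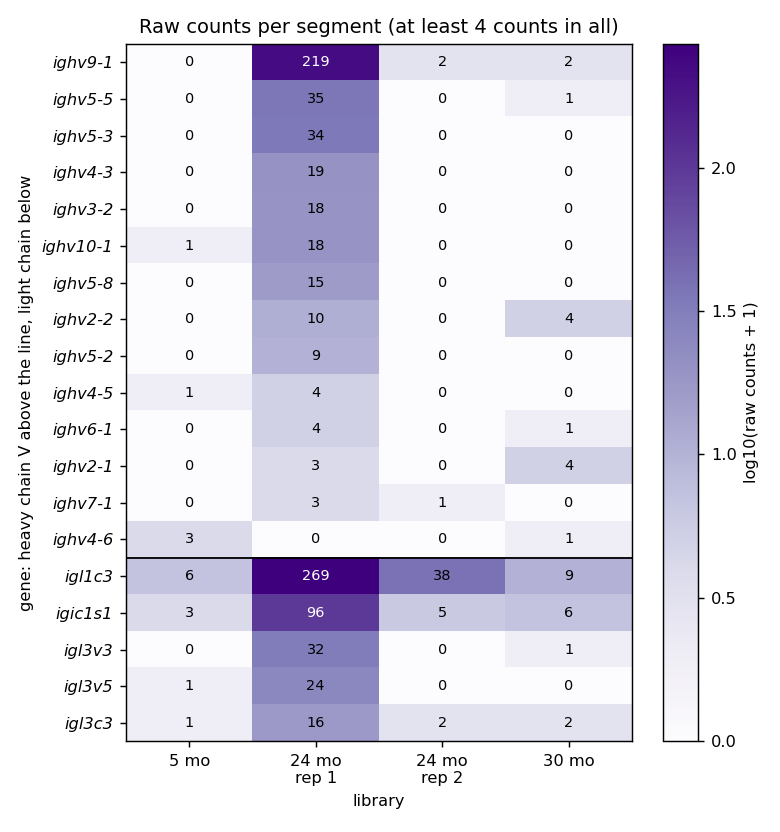
Raw counts (numbers; shading is log10 of counts plus 1) of the 14 heavy chain variable segments and 5 light chain genes with at least 4 counts over the 4 libraries, 1 column per library. Most counts sit in replicate 1 of 24 months, led by ighv9-1 (219) and igl1c3 (269), and igl1c3 has 38 counts in replicate 2.

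The partner genes of the receptor did not move together. The gene cd79a, which encodes the chain that pairs with CD79b under the antibody, had 11 counts at 5 months, 176 and 6 in replicates 1 and 2 at 24 months, and 3 at 30 months. These are 0.528, 7.64, 0.620 and 0.157 CPM, so replicate 1 was high and the other libraries low, with 30 months lowest. By contrast cd79b had 27 counts at 5 months, 24 and 1 in replicates 1 and 2 at 24 months, and 2 at 30 months. Replicate 1 was thus level with the 5-month library for cd79b (log2 difference −0.29), while cd79a was 3.6 higher there on the same scale. In counts, cd79a over cd79b was 0.407 at 5 months (95% counting interval from 0.182 to 0.849), 7.33 in replicate 1 (4.77 to 11.8), 6.0 in replicate 2 (0.728 to 276.0) and 1.5 at 30 months (0.172 to 18.0). The intervals of the 5-month library and replicate 1 did not overlap. The germ cell genes had the same pair of high libraries as cd79b, at 1119 CPM at 5 months and 989 CPM in replicate 1. Their part in the counts of cd79b was not tested. Neither gene passed between 24 and 5 months, with log2 changes of 2.96 for cd79a (SE 2.54) and −1.13 for cd79b (SE 3.19), each at an edgeR adjusted p of 1 (n = 2 and 1).

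The signalling genes differed in how far they varied. The adaptor gene blnk had 73 counts at 5 months, 302 and 6 in replicates 1 and 2 at 24 months, and 56 at 30 months (3.5, 13.1, 0.620 and 2.94 CPM). Replicate 1 was high and replicate 2 low, and the 5-month and 30-month libraries lay between them. The kinase gene BTK had 82, 200, 43 and 108 counts in the same order, or 3.94, 8.69, 4.45 and 5.67 CPM. The values of BTK lay closest together among the 8 genes, and both 24-month replicates stood above the 5-month library. For replicate 2 the excess of BTK was within counting error (ratio 1.13, 95% counting interval from 0.762 to 1.65). Its log2 change between 24 and 5 months was 0.74 (SE 1.58), and that of blnk 0.98 (SE 1.66), with an edgeR adjusted p of 1 for each (n = 2 and 1). Macrophages and other myeloid cells also express btk and blnk. The 19 macrophage markers summed to 206 CPM at 5 months, 578 and 395 CPM in replicates 1 and 2 at 24 months, and 404 CPM at 30 months, and their part in the levels of BTK and blnk was not tested.

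The lineage gene PAX5 had 13 counts at 5 months, 61 and 0 in replicates 1 and 2 at 24 months, and 1 at 30 months. Its counts thus lay mainly in the same pair of libraries as those of cd79b and the germ cell genes, with 1 count at most in the others. Replicate 1 had 4.25 times the scaled PAX5 level of the 5-month library, with a counting interval from 2.31 to 8.43. For cd79b that ratio was 0.805 (interval from 0.444 to 1.45), so the levels of the 2 genes differed within the pair. The germ cell genes summed to 1119 CPM at 5 months and 989 CPM in replicate 1. Their part in the counts of PAX5 was not tested. The tetraspanin gene cd37, a membrane organiser of mature B cells and other leukocytes, had 14, 52, 2 and 4 counts at 5 months, in replicates 1 and 2 at 24 months and at 30 months. The counts of cd37 thus lay mainly in that pair too, with replicate 1 at 3.36 times the 5-month level (interval from 1.84 to 6.57). For cd37 the lower level in replicate 2 was within counting error (ratio 0.308 over 5 months, interval from 0.034 to 1.34). The counts of cd79a and ighd lay mainly in that pair as well, so this does not set cd79b, PAX5 and cd37 apart. The log2 changes between 24 and 5 months were 1.1 for PAX5 (SE 3.20) and 0.89 for cd37 (SE 3.17), at an edgeR adjusted p of 1 each (n = 2 and 1).

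Across the 8 genes, 1 (ighm) was called higher and 0 were called lower at 24 against 5 months, where 0.0418% of the 21535 genes tested were called higher and 0.0836% lower. All 8 genes passed the filter on low counts, but ighd and PAX5 passed through replicate 1 alone, and 6 passed without it. Set singly against 5 months, replicate 1 was at least 2-fold higher for 7 of the 8 genes and lower for 0, against 11.8% and 15.1% of all genes tested. Replicate 2 was at least 2-fold higher for 0 and lower for 4 (PAX5, cd79b, blnk and cd37), against 16.8% and 36.6%. The median log2 difference of the 8 genes was 1.89 in replicate 1 and −1.1 in replicate 2, beside −0.08 and −0.34 over all genes tested. Replicate 1 was the highest library for 7 of the 8 genes, against 19.8% of all genes, and for 5 of the 6 that passed the filter without it. Both replicates lay above the 5-month library for 2 genes, cd79a and BTK (24.5% of all genes), and both below it for cd79b (36.9%). In replicate 2 that excess was within counting error. The ratios were 1.18 for cd79a (95% counting interval from 0.357 to 3.47) and 1.13 for BTK (0.762 to 1.65). For the other 5 genes the direction of the values between 5 and 24 months depended on the replicate. For ighd and cd37 the counting intervals of replicate 2 over 5 months (0 to 11.5 and 0.034 to 1.34) left its direction unresolved.

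**Figure D3:**
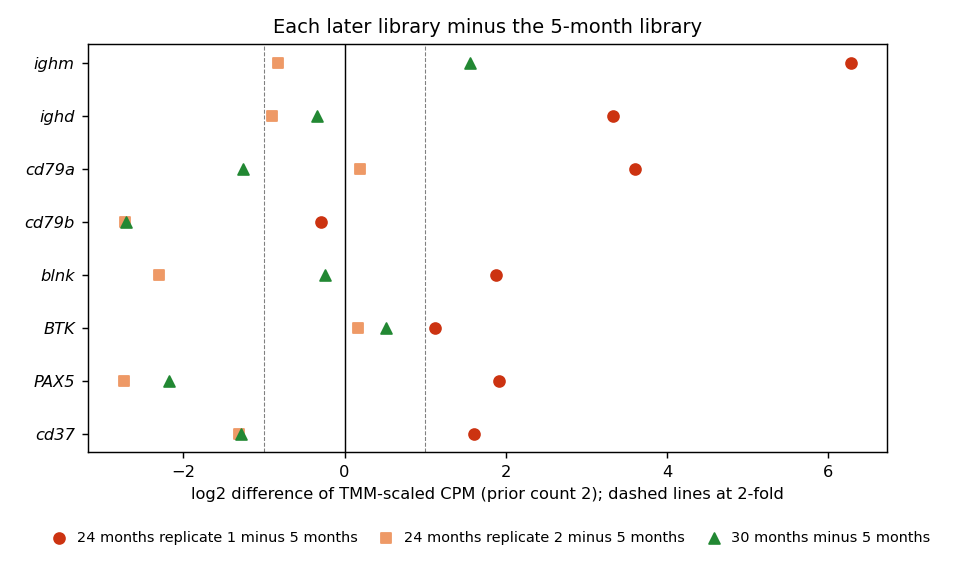
Log2 difference of TMM-scaled CPM (prior count 2) between each later library and the 5-month library, 1 row per gene, with dashed lines at 2-fold. Replicate 1 of 24 months lies past 2-fold on the higher side for each gene but cd79b, and replicate 2 lies past it on the lower side for PAX5, cd79b, blnk and cd37.

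The comparison of 30 with 24 months follows the same genes within old age. None of the 8 was called by edgeR's quasi-likelihood test, where 0.683% of all genes were (147 of 21535). By that test 1 of the 8, ighm, had an unadjusted p under 0.05, beside 1024 of 21535 over all genes. DESeq2 and limma-voom also called 0 of the 8, beside 77 and 7 of all 21535 genes. With these tools 2 and 0 of the 8 had an unadjusted p under 0.05, beside 1145 and 651 of all genes. DESeq2 gave no adjusted p for ighd, PAX5, cd79a, cd79b and cd37, so it could not have called them. All 8 had a negative fitted log2 change (median −3.15, against −0.14 over all genes). The 30-month library nevertheless lay within the range of the 24-month pair for 7 of the 8 genes, beside 41.1% of all genes. For cd79a it lay below that range. In replicate 2, the lower edge, ighd, PAX5, cd79b and cd37 had 0, 0, 1 and 2 counts, against 1, 1, 2 and 4 at 30 months. The side of replicate 2 on which 30 months lay was unresolved for these genes. It was also unresolved for BTK (ratio 1.275, 95% counting interval from 0.888 to 1.86) and cd79a (0.254, interval from 0.0411 to 1.19). Against replicate 1 the 30-month library was at least 2-fold lower for 7 genes and higher for 0 (20.9% and 16.3% of all genes). That count and the median of −3.15 include ighd and PAX5, which passed the filter on low counts through replicate 1 alone. Their being lower than replicate 1 was thus set by the filter, and the shares over all genes are no measure for them. Against replicate 2 it was lower for 1 gene, cd79a, and higher for 2, ighm and blnk (17.5% and 31.2%). For ighm the log2 difference was −4.73 against replicate 1 and 2.37 against replicate 2.

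Fish of the strain AB JxTu can be compared at 30 and 5 months, with 1 library each and so without a replicate check. The 30-month library held more ighm, at 213 counts against 78 counts at 5 months, a ratio of 2.99 after scaling (95% counting interval from 2.29 to 3.92). It held less of cd79b, at 2 counts against 27 (ratio 0.0810, interval from 0.00934 to 0.322), and of PAX5, at 1 count against 13 (ratio 0.0841, interval from 0.00198 to 0.560). For cd79a the counts were 3 against 11 (ratio 0.298, interval from 0.0534 to 1.13), and for cd37 they were 4 against 14 (ratio 0.313, interval from 0.0749 to 0.995). The remaining genes lay within 2-fold, with log2 differences of 0.51 for BTK, −0.24 for blnk and −0.34 for ighd, the last from 1 count against 2. In all, 1 gene was at least 2-fold higher and 4 were at least 2-fold lower at 30 months, beside 14.4% and 22.6% of all genes. The 5-month library, with its germ cell and kidney tubule transcripts, was the higher one for each of those 4 genes, and the part of those tissues was not tested. A slope over age, fitted to the 4 libraries, called 0 of the 8 genes and 0% of all genes with edgeR. By that fit 0 of the 8 had an unadjusted p under 0.05, beside 336 of 21535 over all genes. DESeq2, which gave no adjusted p for ighd, and limma-voom called 0 of the 8 as well, beside 27 and 0 of all genes. The slope of ighm was 2.15 per 10 months (SE 1.74, edgeR adjusted p = 0.9999, n = 4 libraries) on the log2 scale, and 0.48 without replicate 1 of 24 months.

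The genes were set side by side per length, as TMM-scaled CPM divided by gene length in kilobases (RPKM). At 5 months the 8 genes lay between 0.0181 and 1.54 RPKM, in the order cd79b (1.54), BTK (1.49), ighm (1.04), blnk (0.962), cd79a (0.768), cd37 (0.544), PAX5 (0.363) and ighd (0.0181). In replicate 1 of 24 months ighm led at 83.0 RPKM, followed by cd79a at 11.1, blnk at 3.6, BTK at 3.30, cd37 at 1.83, PAX5 at 1.54, cd79b at 1.24 and ighd at 0.369 RPKM. The gene cd79b was thus the highest of the 8 at 5 months, while in replicate 1 it stood above ighd alone. In replicate 2 the order began with BTK (1.69 RPKM), cd79a (0.903) and ighm (0.574), and at 30 months with ighm (3.10), BTK (2.15) and blnk (0.807). At 24 months the ranges of the replicates overlapped for every neighbour in the order of replicate 1, so no step of that order exceeded the spread of the pair.

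The make-up of the B cell signal also differed between libraries. Of the counts of the 8 genes together, ighm took 26.0% at 5 months, 88.9% and 25.6% in replicates 1 and 2 at 24 months, and 54.9% at 30 months. In counts, ighm over cd79a was 7.09 at 5 months (95% counting interval from 3.75 to 14.8), 39.1 in replicate 1 (33.7 to 45.7), 3.33 in replicate 2 (1.29 to 10.1) and 71.0 at 30 months (24.0 to 347). The 30-month library and replicate 1 had the higher ratios, and their intervals did not meet those of the other libraries. Over PAX5 the ratio of ighm was 6.0 at 5 months (3.31 to 11.8), 113 in replicate 1 (87.8 to 148) and 213 at 30 months (37.8 to 8452). In replicate 2 PAX5 had 0 counts. Over the light chain genes ighm stood at 6.0 at 5 months (3.31 to 11.8), 15.5 in replicate 1 (14.1 to 17.1), 0.444 in replicate 2 (0.249 to 0.768) and 11.2 at 30 months (7.0 to 19.0). Replicate 2 was the library in which light chain counts outnumbered those of ighm. There igl1c3 alone held 38 of the 45 light chain counts, against 20 counts of ighm. The intervals cover counting error only.

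**Figure D4:**
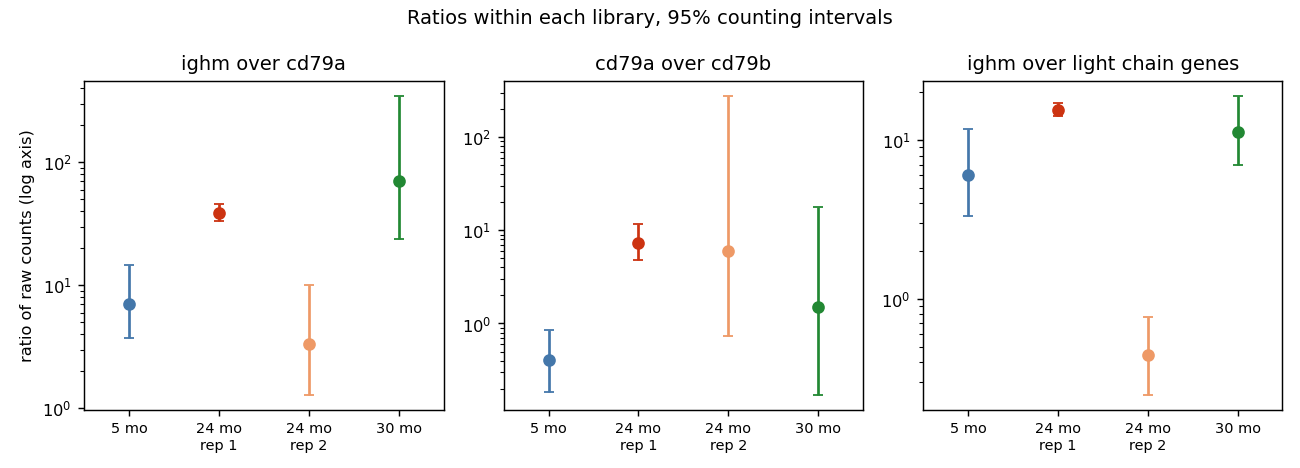
Ratios of raw counts within each library (log axis), for ighm over cd79a, cd79a over cd79b and ighm over the 10 light chain genes, with 95% counting intervals as bars. The ratio of ighm to cd79a is highest at 30 months (71.0), that of cd79a to cd79b lowest at 5 months (0.407), and that of ighm to light chain genes lowest in replicate 2 of 24 months (0.444).

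No gene of the wider receptor signalling list passed a test. Of 22 such genes 0 were called in any comparison by edgeR, where at most 0.683% of all genes were. At 24 months 18 of 22 were higher than at 5 months, beside 10266 of 21535 over all genes. The median log2 change was 0.55, beside −0.06 over all genes. Against 5 months the median was 0.50 in replicate 1 and 0.48 in replicate 2, so the medians of the replicates lay close together. The phosphatase gene PTPN6, which restrains the receptor, stood at 11.5 CPM at 5 months, 53.1 and 19.8 CPM in replicates 1 and 2, and 23.3 CPM at 30 months. The kinase C gene PRKCB (ENSDARG00000008723) stood at 44.4, 20.0, 33.3 and 78.1 CPM in that order. The tetraspanin gene CD81 (ENSDARG00000036080), part of the co-receptor in mammals, stood at 313, 319, 99.7 and 451 CPM, and its other copy (ENSDARG00000022437) at 25.1, 11.4, 2.79 and 11.6 CPM. Chosen after its values were seen, cd22, an inhibitory B cell receptor in mammals, followed cd79a in part, with 1.06, 6.56, 1.14 and 1.84 CPM. The kinase gene blk of the same list, also chosen so, stood at 1.73, 7.04, 6.31 and 2.36 CPM. Unlike cd22, blk was thus high in both 24-month replicates.

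Transcription factors of the lineage showed no common direction. Of 20 genes, 12 were higher at 24 than at 5 months, beside 10266 of 21535 over all genes. None was called by edgeR in any comparison, where at most 0.683% of all genes were. The median log2 change was 0.43 between 24 and 5 months (−0.06 over all genes). Between 30 and 24 months it was −0.59 (−0.14 over all genes). The factor genes SPI1 (ENSDARG00000000767) and IRF8, which serve macrophages as well as B cells, stood at 7.05 and 8.54 CPM at 5 months, 47.0 and 34.6 CPM in replicate 1, 19.2 and 13.7 CPM in replicate 2, and 17.7 and 13.5 CPM at 30 months. The octamer-binding factor gene pou2f2b stood at 14.3 CPM at 5 months, 12.0 and 3.00 CPM in replicates 1 and 2, and 0.367 CPM at 30 months (log2 change between 30 and 24 months −4.33, SE 1.82, edgeR adjusted p = 0.629, n = 1 and 2). BACH2, a repressor of the plasma cell programme, stood at 16.2, 3.00, 5.79 and 10.5 CPM across the libraries in order of age. FOXO1 (ENSDARG00000099555), the most abundant of the list, stood at 48.3, 75.0, 136 and 69.9 CPM.

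Among 9 surface and survival receptor genes 0 were called by edgeR, where at most 0.683% of all genes were in any comparison. Their median log2 changes were 0.36 between 24 and 5 months and −0.63 between 30 and 24 months. Over all genes these were −0.06 and −0.14. The pan-leukocyte phosphatase gene ptprc, known as CD45, stood at 37.2 CPM at 5 months, 137 and 51.5 CPM in replicates 1 and 2, and 61.1 CPM at 30 months. It was thus highest in replicate 1, by less than ighm or cd79a. The chemokine receptor gene CXCR4 (ENSDARG00000041959) stood at 48.6, 93.6, 101 and 52.8 CPM, the co-stimulatory receptor gene cd40 at 11.1, 13.6, 5.17 and 16.8 CPM, and cd83 at 3.6, 3.08, 0.827 and 4.93 CPM.

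No gene of antibody secretion passed a test. Of 7 such genes, 3 were higher at 24 than at 5 months, beside 10266 of 21535 over all genes (median log2 change −0.08, against −0.06). By edgeR 0 were called, where at most 0.683% of all genes were in any comparison. XBP1, which drives the secretory programme in plasma cells and in other secreting cells, stood at 208 CPM at 5 months, 154 and 396 CPM in replicates 1 and 2, and 117 CPM at 30 months. PRDM1 (ENSDARG00000002445), the plasma cell master factor, which also serves skin epithelium, stood at 8.01, 8.34, 22.4 and 5.30 CPM. Both were highest in replicate 2, the library with the lowest ighm. The antibody transporter gene pigr, by which epithelia carry antibodies to the surface, stood at 10.6, 13.1, 6.93 and 18.1 CPM, and DERL3 at 19.6, 14.7, 10.8 and 13.9 CPM.

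Genes of antibody gene recombination were read as well. The gene dntt, whose product adds bases at the joints, had 0 counts in every library. RAG1 and RAG2, whose proteins cut the antibody loci in developing lymphocytes, were unlike the antibody genes. RAG2 had 691 counts at 5 months, 292 and 1 in replicates 1 and 2 at 24 months, and 1 at 30 months, and RAG1 had 26, 5, 0 and 0 counts. Neither passed, with a log2 change of RAG2 between 30 and 24 months of −6.77 (SE 1.92, edgeR adjusted p = 0.0570, n = 1 and 2). The high libraries of RAG2 were those of the germ cell genes. Of the germ cell genes, 12 of 12 were at least 2-fold lower in replicate 2 than in the 5-month library, beside 36.6% of all genes tested. RAG2 stood at 33.2 CPM at 5 months and 12.7 CPM in replicate 1. The germ cell genes summed to 1119 and 989 CPM in these libraries, and the kidney tubule genes to 437 and 39.9 CPM. The part of germ cells and of kidney in the RAG2 counts was not tested.

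Markers of other leukocytes also had positive medians in replicate 1. Of 18 T and NK cell genes tested 10, and of 18 macrophage genes 11, were at least 2-fold higher in replicate 1 than at 5 months. The share over all genes tested was 11.8%. At least 2-fold lower were 2 and 1 genes of these lists, beside 15.1% of all genes. The median log2 differences were 1.18 and 1.4. In replicate 2 the medians were 0.77 and 0.41, and at 30 months 1.07 and 1.11. The 19 T and NK cell genes summed to 62.1 CPM at 5 months and 120 CPM at 30 months. In replicates 1 and 2 they summed to 122 and 135 CPM. The sum was thus not low in replicate 2, unlike ighm, blnk and PAX5. Its largest parts there were TOX (31.6 CPM) and ZAP70 (24.6 CPM). Of the 18 genes tested, 8 were at least 2-fold higher in replicate 2 than at 5 months and 3 lower (16.8% and 36.6% of all genes). The gene trbc1 stood at 2.35, 6.04, 1.14 and 6.09 CPM in order of the libraries. Neutrophil genes had medians of 0.31, −0.02 and −0.36 in replicates 1 and 2 and at 30 months against 5 months. These 6 genes were split. In replicate 1, NCF1 was at least 2-fold higher (log2 difference 3.30), while npsn (−2.30) and lyz (−2.25) were at least 2-fold lower. None of the genes of these lists was called by edgeR in any comparison, where at most 0.683% of all genes were. The part of these cells in the B cell gene levels was not tested.

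**Figure D5:**
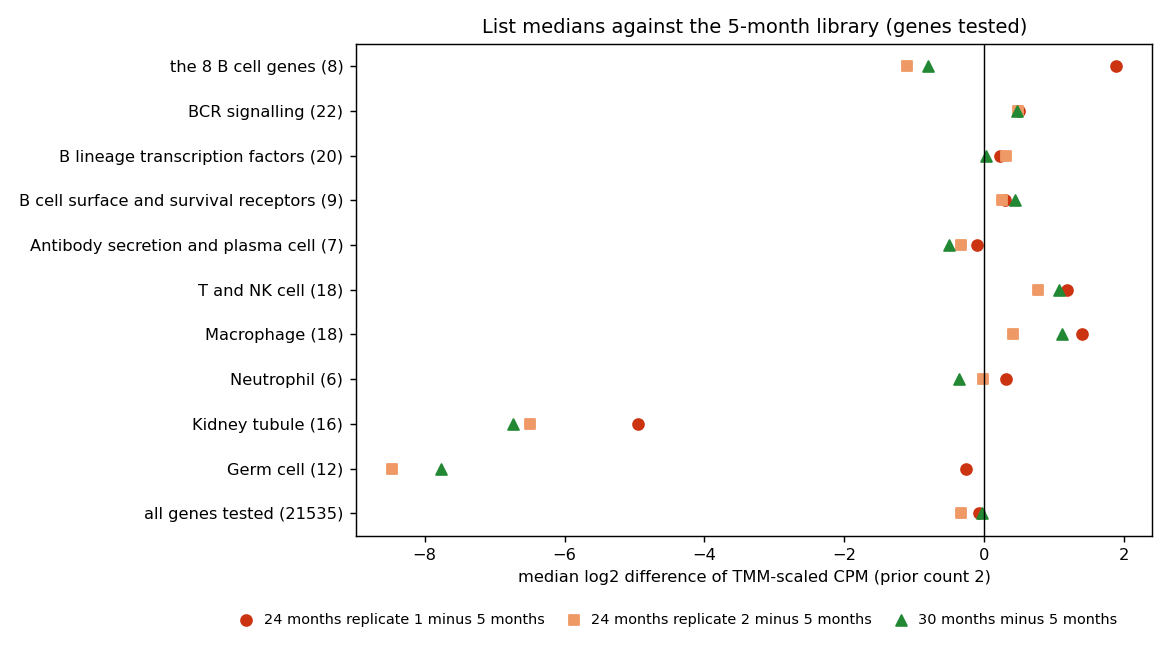
Median log2 difference of TMM-scaled CPM (prior count 2) between each later library and the 5-month library for gene lists, with the number of genes tested in brackets. The 8 B cell genes have medians of 1.89 in replicate 1 and −1.1 in replicate 2 of 24 months, while the median of receptor signalling genes is 0.50 and 0.48.

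Among 11750 genes that carry a name and average 5 CPM or more, those whose levels over the 4 libraries lay closest to ighm were grna.1, mxc, alox5b.2, ACOD1 and ifi44a8. Their root mean square difference from ighm, with each gene centred on its own mean log2 level, ran from 0.68 to 0.84. They include a granulin gene, an interferon-induced Mx gene and the itaconate synthase gene of activated macrophages. The granulin gene grna.1 stood at 2.78 CPM at 5 months, 255 and 4.03 CPM in replicates 1 and 2, and 5.88 CPM at 30 months, against 3.74, 299, 2.07 and 11.2 CPM for ighm. The genes closest to cd79a were linc-iglc3, NEU3 (ENSDARG00000010047), NCF1, grna.2 and cybb, at 0.53 to 0.71. The transcript linc-iglc3 bears the name of a light chain locus and stood at 0.960, 19.8, 2.07 and 1.16 CPM in order of the libraries. NCF1 and cybb encode parts of the oxidase of phagocytes. With 4 libraries, of which replicate 1 stood far out, likeness here means mainly a peak in that library.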

How the data were processed

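RNA of male zebrafish skin was measured in 4 libraries. The deposited counts are whole reads per Ensembl gene. Per the submitters' processing notes, the tools were CASAVA 1.7, STAR 2.4.1d and featureCounts 1.4.6-p4, and the build was GRCz10. The sources used here give neither the annotation release nor the strand setting, so a read over an overlap of genes, antisense ones included, may have been given to either. The authors deposited a second table named for RPKM, treated as a score because the library total behind a value changes from row to row and recurs every 24 rows, at 0.391 to 2.05 times the own total. Solving for these totals gave gene lengths, which were within 0.1 base of a whole number for 100% of 300 genes with values of at least 100. These lengths were used for levels per length, and those of low genes are approximate.

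Symbols covered 26269 of 32105 genes. Counts were tested with edgeR 4.0.16 in R 4.3.3 (TMM, filterByExpr by group, glmQLFit and glmQLFTest, Benjamini-Hochberg over 21535 genes, threshold 0.05), as group means and as a slope on age. With 1 residual degree of freedom the group tests take the spread of the 24-month pair, shared across genes, for the lone libraries. The slope has 2 residual degrees of freedom. In the fit of groups the prior degrees of freedom were infinite, so a gene's own spread did not enter its p-value. Each SE is the absolute log2 change divided by the square root of F. The test was also run on simulated counts, but with a smaller spread than that of these data, so that run cannot vouch for it here. Differences without a test are on log2 CPM after TMM scaling, with 2 as the prior count. Counting intervals are exact conditional binomial, at 95%. DESeq2 1.42.0 and limma 3.58.1 served as alternatives.

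The genes and lists were chosen with earlier results of these data known. Text names every gene of the set, and from each B cell list the genes called, up to 4 with the smallest p at a mean of at least 1 CPM and the most abundant (of light chain and variable segments, the 4 most abundant). It also names the 5 genes closest to ighm and to cd79a. No sequences or coordinates are printed, and 1 gene of a list is not reported here.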

Additional observations from a re-analysis of the deposited data

How the results depend on the processing

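Of 169 alternative values of single genes that kept all libraries, 160 kept direction and, where a test was run, call. The 30 and 5 month values carry no test. They were held the same where they moved by less than the standard deviation of the 24-month pair. That rule could hardly fail where the replicates lay far apart, as for ighm (7.10 on the log2 scale). A gene without an adjusted p from DESeq2 was taken as not called. The call of ighm between 24 and 5 months (log2 5.33, edgeR adjusted p = 0.00841) remained without a filter on low counts (adjusted p = 0.00588). It was lost with DESeq2 (5.40, adjusted p = 0.0986), limma-voom (3.29), library totals alone (5.33), a floor of 5 CPM (5.38) and the newer edgeR dispersion setting (5.34), with adjusted p from 0.0986 to 1. These 5 settings called 0 genes of the set in place of 1, with 3 of the 8 tested under the floor. Over all genes 27 were called (9 higher and 18 lower), against 40 with DESeq2 (23 higher and 17 lower), 22 without the filter, 3 with limma-voom and 0 with library totals, the floor and the newer setting. Between 30 and 24 months, 147 genes in all were called, against 77 with DESeq2, 7 with limma-voom, 2 with library totals, and 1 each with the floor and the newer setting. Of the 8 genes 1, ighm, was called there without the filter (−3.76, adjusted p = 0.0490; over its alternatives from 0.0490 to 1). On age, DESeq2 called 27 genes of all, against 0. Library totals shifted the median of all genes by −0.20, −0.09 and −0.11 in the 3 fits.

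The change of PAX5 between 24 and 5 months was −0.32 with limma-voom, and under the newer edgeR setting the slopes of PAX5 and cd37 were 0.0489 and 0.0335, against −0.04 and −0.03. The cause was not tested. Without replicate 1 or 2, the log2 difference of 24 and 5 months ran from −0.90 to 3.32 for ighd, −0.82 to 6.28 for ighm, −2.74 to 1.91 for PAX5, −2.31 to 1.87 for blnk, −1.30 to 1.60 for cd37, −2.72 to −0.29 for cd79b, 0.17 to 1.12 for BTK and 0.20 to 3.6 for cd79a. That of 30 and 24 months ran from −3.67 to 0.56 for ighd, −4.73 to 2.37 for ighm, −4.08 to 0.56 for PAX5, −0.61 to 0.34 for BTK, −2.12 to 2.06 for blnk, −2.42 to 0.0106 for cd79b, −2.89 to 0.0142 for cd37 and −4.86 to −1.45 for cd79a. The lower ends between 24 and 5 months, and the higher ends between 30 and 24 months, are those without replicate 1. Slopes on age without either replicate called 372 genes of all (without replicate 1) and 0 (without replicate 2), and 0 of the 8 genes, of which 6 passed the filter without replicate 1.

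Those slopes ran from 0.48 to 2.45 for ighm, −0.39 to 1.12 for cd79a, −0.26 to 0.40 for blnk and −0.71 to 0.17 for cd37, and the slope of PAX5 was 0.24 without replicate 2. Leaving out a 24-month replicate leaves no residual degrees of freedom between groups, so those values carry no test. No paired analysis was possible, since the groups differ in size and nothing in the sample labels used here links libraries of different ages. Of the 30 and 5 month differences none changed direction under another scaling, prior count or the second deposited table, as deposited or, added after seeing the data, with its totals put right, and the number past 2-fold was 5 of 8 in each. Depth limits ighd, PAX5, cd79a, cd79b, cd37 and the segments, each with at most 6 counts in at least 2 of the 4 libraries.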
